A study of Mus musculus with 23 samples.

Results

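Saline-treated uterine horns from mice with an ethanol-damaged endometrium were compared gene by gene with SHAM horns. The columns labelled PBS (horns 7 to 11) and SHAM (horns 1 to 6) were taken, 11 of the 23 libraries deposited, and each library came from the endometrium of 1 horn. All animals were female C57BL/6 mice. In the PBS group the endometrium had been injured with 70° ethanol, saline followed 4 days later, and tissue was taken 2 weeks after that injection. The treatment of the SHAM horns is not described in the labels, so ethanol, saline and handling cannot be told apart. Age, cycle stage and the mouse behind each horn are not given either. The 12 remaining libraries, 6 HG and 6 HG+ORG, came from damaged horns that received a hydrogel without or with human organoids, and they served here only in the estimate of the spread.

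The endometrium is the inner lining of the uterus, made of a luminal and glandular epithelium over a stroma that carries vessels and immune cells, and it lies inside the smooth muscle of the myometrium. Its epithelium and stroma change through each estrous cycle under estrogen, acting through Esr1, and progesterone, acting through Pgr. Ethanol injury is used to model Asherman syndrome and endometrial atrophy, in which the functional lining is thinned or replaced by collagen-rich scar.

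Levels are given as CPM, the raw counts of a gene relative to the size of its library. For a gene, 5 values follow PBS horns 7, 8, 9, 10 and 11 in that order, and 3 values for SHAM are the lowest, the median and the highest of the 6 horns. CPM are not divided by gene length and serve to compare horns, not genes. Log2 folds are PBS over SHAM, fitted by edgeR's quasi-likelihood test on the mean counts of each group, with their standard error (SE).

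Total counts ran from 11426751 to 14902952 in the PBS horns and from 7920918 to 14688135 in the SHAM horns. Genes encoded by the mitochondrial genome took 1.82 to 9.37% of counts in PBS and 1.57 to 6.76% in SHAM. The tissue label was borne out in part. Epithelial genes were abundant in all 11 horns, with Epcam, an epithelial adhesion molecule, at 1049, 964, 1470.2, 1276 and 1509 CPM in PBS horns 7 to 11, against 1058, 1709.7 and 2760.2 CPM in the SHAM horns. Stromal and vascular genes were not: Dcn, the proteoglycan decorin of stromal fibroblasts, had 448, 2.02, 3.94, 1013 and 119.6 CPM in PBS horns 7 to 11, against 62.9, 116 and 266 CPM in the SHAM horns. In Dcn PBS horns 8 and 9 were far below every SHAM horn. The summed level of the 13 stromal genes on the fixed list was 1122, 141, 139, 2048 and 373 CPM in PBS horns 7 to 11, against 224, 368 and 509 CPM in the SHAM horns. Among SHAM, horn 3 stood apart, with Mki67, a marker of dividing cells, at 1.38 CPM and a group median of 297 CPM. SHAM horns 5 and 6 were the closest pair, with 9 genes over 4-fold apart. They were kept as separate horns because the titles list them separately. The labels do not say whether they came from the same mouse, and they may not be independent. In an alternative fit with their counts summed, no gene passed between PBS and SHAM either.

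No gene passed between PBS and SHAM. Of 17708 genes tested by edgeR's quasi-likelihood test with Benjamini-Hochberg adjustment, 0 (0%) had an adjusted p under 0.05, and the smallest adjusted p was 1.00. At an unadjusted p under 0.05 there were 385 genes (2.17%), of which 269 (1.52%) were higher and 116 (0.655%) lower in PBS. Evenly spread p-values would put a share of 0.05 of the genes under that limit, more than the 2.17% found. DESeq2 called 1 gene (0.00565%), and 574 (3.24%) had an unadjusted p under 0.05. That gene, Ighg1, an antibody heavy chain, was named after its values were seen and had 0.515 CPM in PBS horn 10 and 0 in the other 10 horns. The test limma voom called 0 genes, with 149 (0.841%) at an unadjusted p under 0.05, or 1715 (9.68%) with sample quality weights, which also left 0 genes past the threshold. There were more horns than the 21 mice that were sacrificed, so some of the 23 horns shared a mouse. The labels do not tie horns to mice, and if horns within PBS or within SHAM shared one, p-values over horns are too small. If horns of 1 mouse lay in different groups, that pairing was not used. Over all genes the median log2 fold was 0.02 and 53.6% of genes had a fold above 0, which is the background for the gene groups below. In bulk RNA, fewer cells of a type and less RNA per cell cannot be told apart.

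The PBS horns did not gather on one side of the SHAM horns. On the first principal component of the 500 most variable features, which held 41.1% of the variance, PBS horns 7 and 10 lay at 43.3 and 44.8 and PBS horns 8 and 9 at -48.9 and -45.6. PBS horn 11 was at -8.32, and the 6 SHAM horns lay between these ends, from -22.6 to 29.1. The second component, with 25.3% of the variance, set SHAM horn 3 at -55.4 apart from the other 10 horns, which lay between -20.2 and 33.2.

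**Figure D1:**
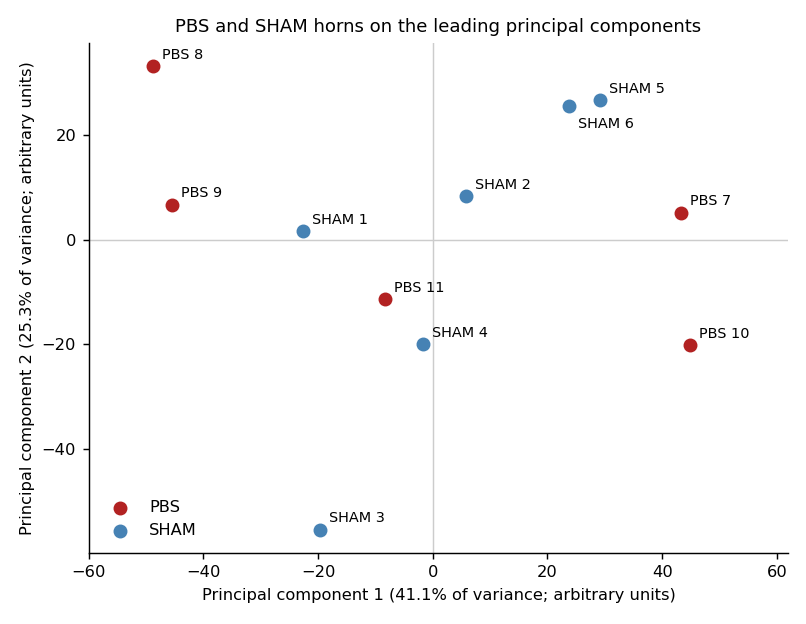
Each point is 1 horn, placed by its scores on the first and second principal components of log2 CPM over the 500 most variable features (arbitrary units; PBS red, SHAM blue). PBS horns 7 and 10 lie at 43.3 and 44.8 on the first component and PBS horns 8 and 9 at -48.9 and -45.6, with the SHAM horns from -22.6 to 29.1 between them.

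Direct comparison of single horns gave the same picture of wide spread within both groups. A pair of PBS horns had a median of 1456.5 genes over 4-fold apart (620 to 2324 over 10 pairs), a PBS and a SHAM horn 1095 (146 to 2795 over 30 pairs) and a pair of SHAM horns 1527 (9 to 2621 over 15 pairs). SHAM pairs that included horn 3 or 4 had 1400 to 2621 such genes, and pairs among SHAM horns 1, 2, 5 and 6 had 9 to 653. The farthest PBS pair was 8 and 10 with 2324 genes, and the closest was 9 and 11 with 620. PBS horns 7 and 10 differed in 762 genes, and PBS horns 8 and 9 in 722. PBS horn 11 differed from SHAM horn 1 in 146 genes and from SHAM horn 2 in 209, fewer than from any other PBS horn. The same held for PBS horn 9, with 249 genes from SHAM horn 1, and PBS horn 7, with 571 from SHAM horn 2. PBS horns 8 and 10 were each closest to another PBS horn. The SD of log2 CPM over horns was larger in PBS than in SHAM in 7708 genes (43.5%), with median SDs of 0.39 in PBS and 0.47 in SHAM. SHAM horns 3 and 4 are part of those SHAM SDs, and SDs without them were not computed.

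Each PBS horn was also set against the range of the 6 SHAM horns, counting genes more than 2-fold above the highest or below the lowest of them. PBS horn 10 had 856 genes above (4.83% of those tested) and 89 below (0.503%). PBS horn 7 had 612 above (3.46%) and 11 below (0.0621%). In the other direction, PBS horn 8 had 303 above (1.71%) and 602 below (3.4%), and PBS horn 9 had 15 above (0.0847%) and 328 below (1.85%). PBS horn 11 had 62 above (0.35%) and 23 below (0.13%). Some of the smaller counts rested on 1 SHAM horn: horn 10 had 286 genes below without SHAM horn 4, horn 11 had 156 above without SHAM horn 2 and 155 below without SHAM horn 3, horn 7 had 20 below without SHAM horn 2 and horn 9 had 28 above without SHAM horn 1. Horns 7 and 10 thus differed from SHAM mostly upward, horn 9 mostly downward, horn 8 in both directions and horn 11 in few genes.

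**Figure D2:**
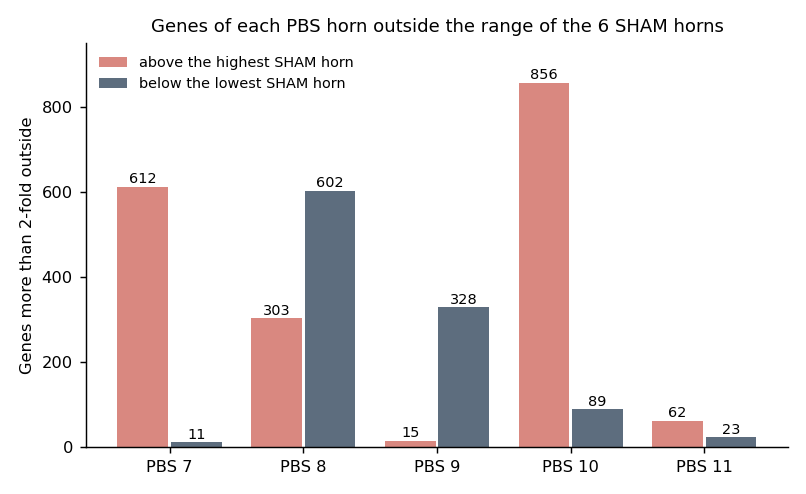
Bars give, for each PBS horn, the number of the 17708 genes tested that were more than 2-fold above the highest SHAM horn (left bar) or below the lowest SHAM horn (right bar). Horns 7 and 10 have 612 and 856 genes above, horns 8 and 9 have 602 and 328 below, and horn 11 has 62 above and 23 below.

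Blood vessel genes were divided along this split. Pecam1, an adhesion molecule of endothelial cells, had 149, 0.606, 0.724, 114 and 3.52 CPM in PBS horns 7 to 11, against 2.41, 6.48 and 17.0 CPM in the SHAM horns. Cdh5, the cadherin of endothelial junctions, had 79.6, 2.42, 0.402, 128 and 2.39 CPM in PBS horns 7 to 11, against 1.06, 4.82 and 25.4 CPM in the SHAM horns. In both genes PBS horns 7 and 10 were above every SHAM horn, and horn 11 lay within the SHAM range. Egfl7, which endothelial cells secrete, had 79.7, 3.77, 4.66, 107 and 5.77 CPM in PBS horns 7 to 11, against 3.16, 7.22 and 12.7 CPM in the SHAM horns (log2 fold 2.37, SE 0.94, adjusted p = 1.00 by edgeR). Vwf, the von Willebrand factor of endothelium, had 62.9, 5.99, 0.965, 46.6 and 1.55 CPM in PBS horns 7 to 11, against 0.617, 2.69 and 8.80 CPM in the SHAM horns, with horns 7 and 10 above SHAM and horns 8, 9 and 11 within it. An exception was Flt1, a VEGF receptor, with 40.0, 3.10, 3.38, 43.6 and 18.0 CPM in PBS horns 7 to 11, against 8.14, 10.6 and 209 CPM in the SHAM horns. Of 15 blood endothelial genes tested, 14 had a fold above 0, and 0 passed. At an unadjusted p under 0.05, 6 were higher, against 1.52% of all genes. The median log2 fold was 2.40 against 0.02 over all genes. That median was 1.48 without PBS horn 10 and -0.67 in limma voom with sample quality weights. The list score, the mean log2 CPM of the members, was 5.59, -0.37, -0.57, 5.75 and 1.11 in PBS horns 7 to 11, against 0.65, 1.78 and 3.36 in the SHAM horns. In horn 7 and again in horn 10, 13 of the 15 members were more than 2-fold above all SHAM horns, and in horn 8 and in horn 9, 8 were below them. Of all genes, 3.46% and 4.83% were above in horns 7 and 10, and 3.4% and 1.85% below in horns 8 and 9.

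Lymphatic endothelium and pericytes, the contractile cells that wrap small vessels, were spread in the same way. Ccl21a, a lymphatic chemokine, had 40.6, 0, 0.563, 18.3 and 3.38 CPM in PBS horns 7 to 11, against 1.11, 1.71 and 4.32 CPM in the SHAM horns, and was above SHAM in horns 7 and 10. Rgs5, a regulator of G-protein signalling in pericytes, had 41.9, 0.471, 0.0804, 164 and 1.55 CPM in PBS horns 7 to 11, against 0.453, 2.85 and 21.5 CPM in the SHAM horns. Horn 10 was the highest of the 11 horns in Rgs5, and horn 9 the lowest. All 6 lymphatic genes (median 2.34, 1 at an unadjusted p under 0.05) and 7 of 8 pericyte genes (median 2.17, 0) had a fold above 0, and 0 of them passed. Of all genes, 1.52% were higher at that p. Without PBS horn 10 the pericyte median was 0.36, and without PBS horn 7 the lymphatic median was 1.17.

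Smooth muscle genes were highest in PBS horn 10. Acta2, the smooth muscle actin, had 210.1, 0.337, 6.67, 532 and 33.6 CPM in PBS horns 7 to 11, against 8.75, 18.0 and 34.6 CPM in the SHAM horns. Myh11, the smooth muscle myosin heavy chain, had 84.0, 0.471, 0.965, 267 and 7.81 CPM in PBS horns 7 to 11, against 5.55, 8.18 and 16.3 CPM in the SHAM horns. In both genes horns 7 and 10 were far above the SHAM range, horns 8 and 9 below it and horn 11 inside it. Myocd, the activator of the contractile programme, had 1.07, 0, 0, 2.83 and 0.422 CPM in PBS horns 7 to 11, against 0, 0 and 0.0685 CPM in the SHAM horns, so its log2 fold of 4.58 (SE 1.42) rested on a few reads. Synpo2, an actin-binding protein of muscle, broke the pattern in horn 8, with 30.4, 28.6, 2.81, 79.7 and 5.28 CPM in PBS horns 7 to 11, against 3.46, 4.53 and 12.8 CPM in the SHAM horns. Of 17 muscle genes tested, 15 had a fold above 0. At an unadjusted p under 0.05, 9 were higher, against 1.52% of all genes. Their median log2 fold was 2.31, and 1.03 without PBS horn 10. The muscle score was 4.10, -0.38, 0.15, 5.49 and 1.92 in PBS horns 7 to 11, against 1.08, 1.85 and 2.22 in the SHAM horns. More than 2-fold above all SHAM horns were 13 members in horn 7 and 14 in horn 10, while 10 were below them in horn 8. Of all genes, 3.46% were above in horn 7, 4.83% above in horn 10 and 3.4% below in horn 8. The labels state that the muscle layer was removed by pressing the endometrium out of the horn. The part of carried-over muscle in the other differences was not tested. A fit with the muscle score as a covariate is given with the matrix genes. That score was highest in horns 7 and 10, as were the vessel, stroma and matrix scores, so the fit cannot separate muscle from them.

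Collagen and scar genes, the group most tied to the injury model, showed no common direction in the saline horns. Col1a1, the main chain of type I collagen, had 110.1, 2.63, 1.69, 1068 and 62.5 CPM in PBS horns 7 to 11, against 13.7, 74.5 and 171 CPM in the SHAM horns (log2 fold 1.61, SE 1.38). Col3a1, the chain of type III collagen, had 181, 2.76, 2.17, 1167 and 91.5 CPM in PBS horns 7 to 11, against 19.0, 110.0 and 254 CPM in the SHAM horns (log2 fold 1.25, SE 1.33). PBS horn 10 was above all SHAM horns in both genes, horns 7 and 11 were within the SHAM range, and horns 8 and 9 were below it. Both folds depended on horn 10: without it they were -0.88 for Col1a1 and -0.81 for Col3a1. Eln, the elastin of elastic fibres, had 158, 0.0673, 0.0804, 74.7 and 4.79 CPM in PBS horns 7 to 11, against 2.11, 4.81 and 9.34 CPM in the SHAM horns (log2 fold 3.21, SE 1.23), and here horn 7 was the highest. Lox, which cross-links collagen and elastin, had 30.1, 0, 0.483, 66.8 and 5.98 CPM in PBS horns 7 to 11, against 3.32, 5.16 and 11.2 CPM in the SHAM horns.

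Of the 23 matrix genes, 22 had a fitted fold above 0, 1 of them at an unadjusted p under 0.05 against 1.52% of all genes, and 0 passed. The median log2 fold was 1.25, while the median difference of mean log2 CPM was -0.43, because the fit compares mean counts and a mean of logs does not. The fold and the difference of mean log2 CPM had unlike signs in 1411 of all genes (7.97%). The list's median was -0.29 without PBS horn 10 and -0.72 with limma voom. With the muscle score as a covariate it was -0.95, and the medians of stroma, blood endothelium and pericytes were -0.52, -0.45 and -0.72. The matrix score was 5.69, 1.33, 1.14, 7.11 and 4.17 in PBS horns 7 to 11, against 2.97, 4.02 and 5.35 in the SHAM horns. In horn 10, 16 members were more than 2-fold above all SHAM horns, whereas 15 were below them in horn 8 and 15 in horn 9. Of all genes, 4.83% were above in horn 10, and 3.4% and 1.85% below in horns 8 and 9.

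Stromal fibroblast genes were arranged as the matrix genes were. Lum, the proteoglycan lumican, had 96.2, 0.606, 0.965, 215 and 20.7 CPM in PBS horns 7 to 11, against 11.5, 30.4 and 34.8 CPM in the SHAM horns. Pdgfra, a growth factor receptor of fibroblasts, had 22.9, 0.269, 0.643, 44.5 and 3.59 CPM in PBS horns 7 to 11, against 1.66, 4.48 and 9.41 CPM in the SHAM horns. Hoxa10, a homeobox regulator of the endometrial stroma, had 36.7, 1.95, 1.29, 47.7 and 5.56 CPM in PBS horns 7 to 11, against 1.97, 6.57 and 21.9 CPM in the SHAM horns (log2 fold 1.02, SE 0.99). Horns 7 and 10 were above the SHAM range in all 3 genes. Igf1, a growth factor that the stroma makes, had 51.0, 4.85, 1.61, 95.2 and 15.0 CPM in PBS horns 7 to 11, against 8.30, 20.9 and 47.6 CPM in the SHAM horns (log2 fold 0.47, SE 1.01), and its fold was -0.42 without PBS horn 10. Of 13 stromal genes, 12 had a fold above 0 with a median of 1.03 (0.17 without PBS horn 10), and the score was 4.93, 1.00, 0.61, 5.81 and 2.98 in PBS horns 7 to 11, against 2.36, 3.05 and 4.17 in the SHAM horns. Nr2f2, the nuclear receptor COUP-TFII of the uterine stroma, was the exception. It had 134, 120.3, 121, 113 and 110.2 CPM in PBS horns 7 to 11, against 75.6, 95.4 and 99.6 CPM in the SHAM horns (log2 fold 0.39, SE 0.19, unadjusted p = 0.051), so all 5 PBS horns, horns 8 and 9 included, were above all SHAM horns.

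**Figure D3:**
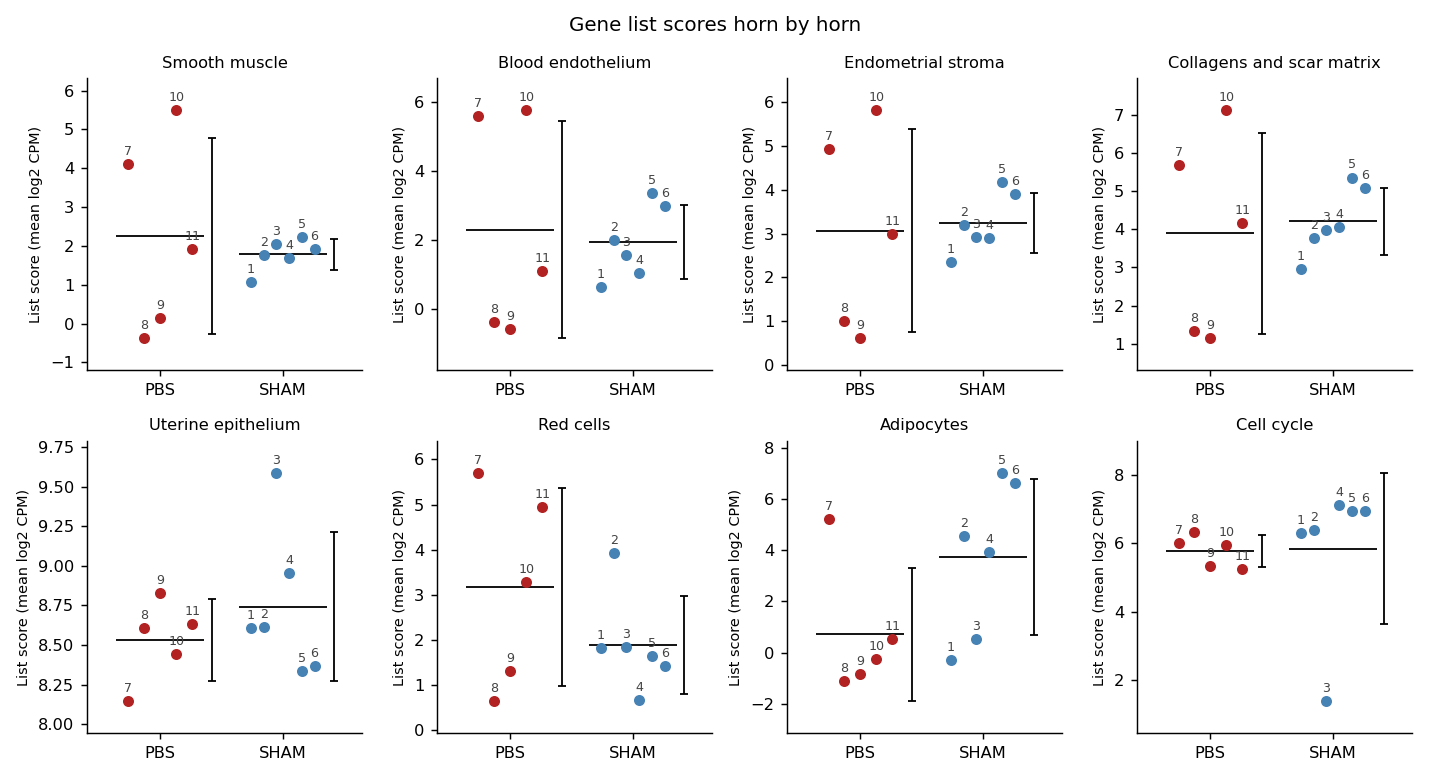
List scores (mean log2 CPM of the tested members) of 8 gene lists, with 1 point per horn labelled by its number, PBS in red at left and SHAM in blue at right; the line is the group mean and the bar 1 SD (n = 5 PBS, n = 6 SHAM). In smooth muscle, blood endothelium, stroma and collagens, PBS horns 7 and 10 lie above the SHAM mean and horns 8 and 9 below it, while the epithelial scores of PBS lie between 8.15 and 8.83.

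Proteases and inhibitors of the matrix were mixed. Mmp12, the elastase of macrophages, had 46.2, 0.202, 0.0804, 1.37 and 74.0 CPM in PBS horns 7 to 11, against 0.0988, 0.214 and 0.959 CPM in the SHAM horns (log2 fold 6.09, SE 2.26), with horns 7 and 11 far above the rest and horn 10 slightly above the highest SHAM horn. Plat, the tissue plasminogen activator, had 1259, 1274, 1656, 296 and 1838 CPM in PBS horns 7 to 11, against 36.2, 1338 and 1665 CPM in the SHAM horns, where PBS and SHAM overlapped widely. Of 17 genes in the list, 13 had a fold above 0, with a median of 0.62 that was 0.15 without PBS horn 7. In the TGF-beta axis, 6 of 12 genes had a fold above 0 and the median was 0.13, or -0.10 without PBS horn 10. Tgfb1, a cytokine that drives matrix production, had 27.0, 5.52, 5.87, 14.5 and 18.9 CPM in PBS horns 7 to 11, against 3.70, 11.8 and 19.0 CPM in the SHAM horns (log2 fold 0.32, SE 0.71), and its fold was -0.04 without PBS horn 7. Tgfb3 was at 12.6, 1.28, 4.10, 12.6 and 7.95 CPM in PBS horns 7 to 11, against 5.81, 6.08 and 81.6 CPM in the SHAM horns, the SHAM maximum being several times the highest PBS horn.

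Antibody transcripts were high in 3 of the 5 saline horns. Jchain, which joins secreted antibody chains, had 6.04, 0, 0.0804, 32.1 and 10.6 CPM in PBS horns 7 to 11, against 0, 0.285 and 0.406 CPM in the SHAM horns (log2 fold 5.12, SE 1.58). Igkc, the kappa light chain constant region, had 13.5, 0.0673, 0.402, 32.4 and 32.9 CPM in PBS horns 7 to 11, against 0.123, 0.569 and 1.56 CPM in the SHAM horns (log2 fold 4.38, SE 1.46). Ighm, the constant region of IgM, had 31.2, 1.41, 2.01, 92.2 and 96.1 CPM in PBS horns 7 to 11, against 2.59, 5.46 and 8.46 CPM in the SHAM horns (log2 fold 3.06, SE 1.06). Horns 7, 10 and 11 were above every SHAM horn in all 3 genes, and horns 8 and 9 were below the SHAM median. Igha, the constant region of IgA, had 5.47, 0, 0, 6.01 and 0.563 CPM in PBS horns 7 to 11, against 0, 0.274 and 0.406 CPM in the SHAM horns, and here horn 11 was near the SHAM level. Of 14 tested genes of the list, 13 had a fold above 0, 10 had an unadjusted p under 0.05 against 1.52% of all genes, and 0 passed. The median log2 fold was 3.34, which was 2.63 without PBS horn 10 and between 1.57 and 5.13 in the other alternative fits, and the median difference of mean log2 CPM was 1.38. The members are partly near-identical genes that can share reads, and 5 of the 19 present in the table failed the filter on low counts. Cd79b, a part of the B cell receptor that other cells also express, had 4.66, 1.48, 5.87, 10.6 and 7.81 CPM in PBS horns 7 to 11, against 3.93, 5.03 and 16.4 CPM in the SHAM horns. Members more than 2-fold above all SHAM horns numbered 6 in horn 7, 10 in horn 10 and 8 in horn 11. Of all genes, 3.46%, 4.83% and 0.35% were above in these horns. Not every member followed the split. Raw counts of Mzb1 were 1, 22, 1, 5 and 4 in PBS horns 7 to 11 and 0 to 11 in SHAM. Those of Derl3 were 26, 24, 8, 53 and 18 in PBS and 8 to 37 in SHAM.

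Red cell transcripts were highest in horns 7 and 11. Hbb-bs, an adult beta globin, had 339, 3.10, 9.57, 76.1 and 193 CPM in PBS horns 7 to 11, against 5.68, 12.9 and 87.2 CPM in the SHAM horns (log2 fold 2.38, SE 1.00). Hbb-bt, its neighbouring copy, had 117, 0.269, 1.29, 11.5 and 95.7 CPM in PBS horns 7 to 11, against 0.494, 3.15 and 15.2 CPM in the SHAM horns. Alas2, the heme synthesis enzyme of red cells, had 14.7, 0.943, 0.643, 2.49 and 9.15 CPM in PBS horns 7 to 11, against 0.494, 0.711 and 4.93 CPM in the SHAM horns. In Hbb-bs and Hbb-bt horn 10 lay within the SHAM range, and horns 8 and 9 were at its lower end or below. All 7 tested genes of the list had a fold above 0 (median 2.34), 6 with an unadjusted p under 0.05 against 1.52% of all genes, and 0 passed. Their median was 1.30 without PBS horn 7. The globin genes are close copies and may share reads.

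Macrophage genes separated into those that set horns 7 and 11 apart and those that did not. Gpnmb, a glycoprotein of lipid-loaded macrophages, had 73.9, 1.21, 2.90, 2.49 and 139 CPM in PBS horns 7 to 11, against 0.123, 3.56 and 5.89 CPM in the SHAM horns (log2 fold 3.86, SE 1.72). It was high in the same horns as Mmp12. Lyz2, the lysozyme of macrophages and neutrophils, had 329.7, 30.4, 34.9, 106 and 263 CPM in PBS horns 7 to 11, against 15.1, 71.6 and 98.2 CPM in the SHAM horns. Adgre1, the F4/80 antigen, had 27.2, 1.14, 3.22, 16.6 and 12.0 CPM in PBS horns 7 to 11, against 1.68, 6.81 and 13.1 CPM in the SHAM horns (log2 fold 0.91, SE 0.79). C1qa, a chain of complement C1q, had 86.8, 3.23, 10.9, 37.2 and 34.8 CPM in PBS horns 7 to 11, against 4.15, 24.4 and 38.5 CPM in the SHAM horns. Horn 7 was above every SHAM horn in these 4 genes, while horn 8 was at or below the SHAM minimum in Adgre1 and C1qa. Cd68, a lysosomal glycoprotein that epithelium also expresses, had 62.6, 9.83, 65.3, 27.8 and 97.4 CPM in PBS horns 7 to 11, against 25.5, 63.6 and 433 CPM in the SHAM horns. Of 16 macrophage and monocyte genes, 13 had a fold above 0, with a median of 0.55 that was 0.01 without PBS horn 7. The score was 5.35, 1.64, 3.16, 4.37 and 4.70 in PBS horns 7 to 11, against 2.73, 3.87 and 4.56 in the SHAM horns.

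**Figure D4:**
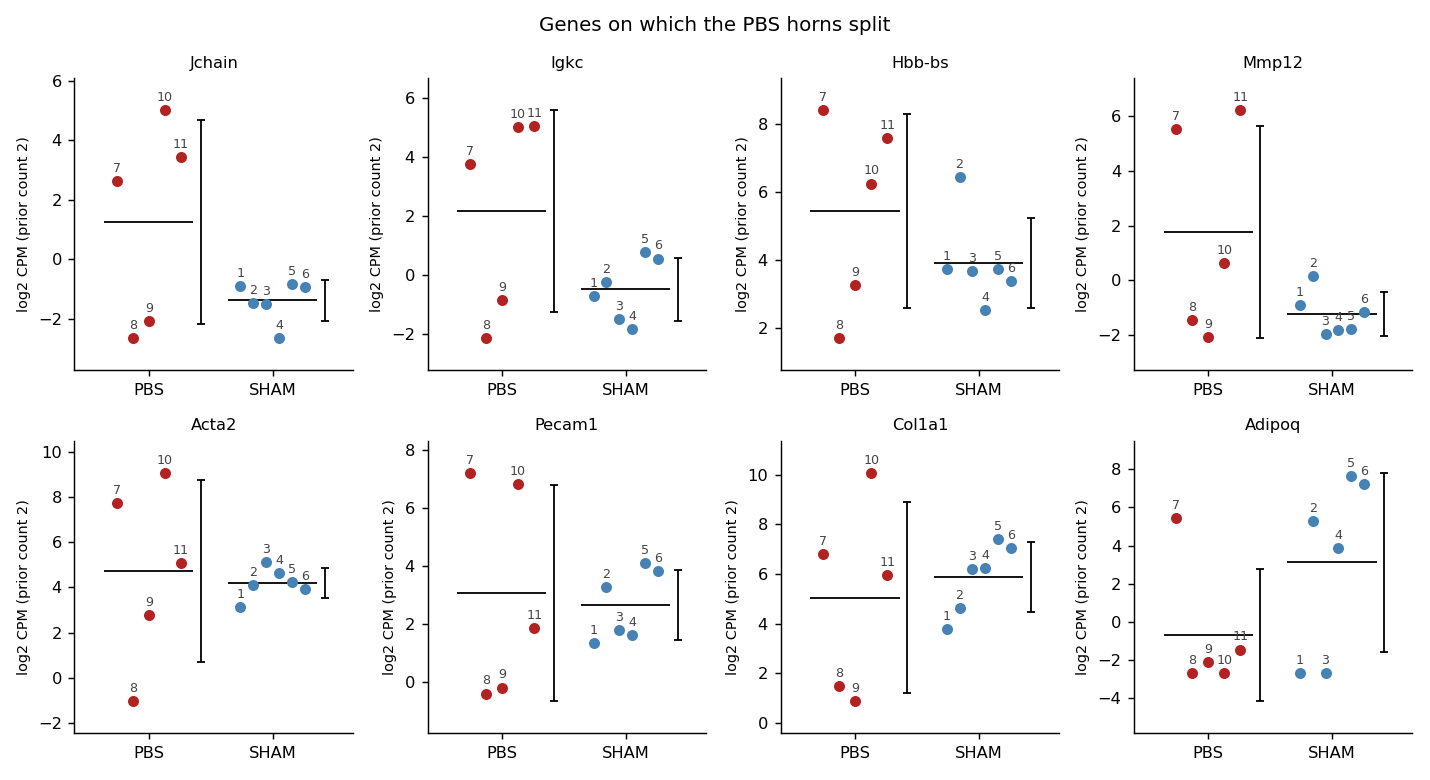
Log2 CPM (prior count 2) of 8 genes, 1 point per horn labelled by its number, PBS in red at left and SHAM in blue at right; the line is the group mean and the bar 1 SD (n = 5 PBS, n = 6 SHAM). Jchain and Igkc are high in PBS horns 7, 10 and 11, Mmp12 in horns 7 and 11, Acta2, Pecam1 and Col1a1 are low in horns 8 and 9, and Adipoq is high in PBS horn 7 and SHAM horns 2, 4, 5 and 6.

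Other immune lists differed little or rested on few horns. T and NK cell genes had a fold above 0 in 10 of 12 members (median 0.70), neutrophil genes in 1 of 7 (-0.36), mast cell genes in 6 of 6 (1.81) and antigen presentation genes in 13 of 15 (0.21). Cpa3, a protease of mast cell granules, had 1.20, 0, 0, 0 and 0.352 CPM in PBS horns 7 to 11, against 0, 0.0338 and 0.0988 CPM in the SHAM horns. The mast cell proteases Mcpt4, Cma1 and Tpsb2 were as low and, like Cpa3, highest in horn 7, without which the list's median was 0.19. Hdc, which makes histamine and which uterine epithelium also expresses, was abundant and highest in horn 8, with 209, 1304, 294, 32.3 and 186 CPM in PBS horns 7 to 11, against 17.9, 269 and 560.2 CPM in the SHAM horns. The receptor Kit was likewise highest in horn 8, at 56.1 CPM. The neutrophil median was -1.43 without PBS horn 7 and 1.46 without SHAM horn 2. Retnlg, a secreted protein of neutrophils, had 36.9, 0.0673, 6.19, 32.3 and 14.6 CPM in PBS horns 7 to 11, against 0.790, 6.04 and 39.1 CPM in the SHAM horns. Cytokines and chemokines had a fold above 0 in 7 of 20 genes (-0.25) and interferon response genes in 6 of 18 (-0.17). Without SHAM horn 2 the cytokine median was 0.58, without PBS horn 7 that of T and NK cells was 0.13, without PBS horn 11 that of antigen presentation was 0.066, and without SHAM horn 3 the interferon median was 0.0004. Among the chemokines with a fold above 0 was Cxcl12, made by stroma and vessels, with 119, 1.89, 0.322, 57.3 and 6.83 CPM in PBS horns 7 to 11, against 2.49, 7.88 and 18.6 CPM in the SHAM horns. In horn 8, 11 of the 20 cytokine genes were more than 2-fold below all SHAM horns, against 3.4% of all genes. None of these 6 gene lists had a member with an unadjusted p under 0.05.

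Fat cell transcripts marked PBS horn 7 and 4 of the SHAM horns. Adipoq, the hormone adiponectin, had 43.2, 0, 0.0804, 0 and 0.211 CPM in PBS horns 7 to 11, against 0, 26.5 and 203 CPM in the SHAM horns. Among SHAM it was at 38.5, 14.6, 203 and 150 CPM in horns 2, 4, 5 and 6, and at 0 in horns 1 and 3. Cfd, adipsin, had 359.6, 0.0673, 0, 0.0858 and 1.27 CPM in PBS horns 7 to 11, against 0.296, 153 and 1312 CPM in the SHAM horns. Fabp4, a fatty acid carrier of fat cells and endothelium, had 483, 0, 0.0804, 4.03 and 2.60 CPM in PBS horns 7 to 11, against 0.302, 97.3 and 683 CPM in the SHAM horns, and Car3, a carbonic anhydrase of fat and muscle, had 194, 0, 0.161, 0.257 and 2.67 CPM in PBS horns 7 to 11, against 1.28, 102 and 883 CPM in the SHAM horns. All 12 list members had a fold below 0 and 0 had an unadjusted p under 0.05. The median log2 fold was -2.47, and -8.73 without PBS horn 7. Mesothelial genes, which mark the outer surface of the uterus, had a fold below 0 in 7 of 8 members (-0.60), and the median was 0.07 without SHAM horn 3. Schwann and nerve cell genes had a fold above 0 in 1 of 4 (-0.47), and the median was 0.28 without SHAM horn 3.

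The epithelium varied less than the stroma. Wfdc2, a secreted protein of the uterine epithelium, had 1353, 1995, 2306, 2493 and 1678 CPM in PBS horns 7 to 11, against 1521, 1708 and 2509.5 CPM in the SHAM horns. Elf3, an epithelial transcription factor, had 361, 208, 509, 958 and 679.5 CPM in PBS horns 7 to 11, against 281, 508 and 2832 CPM in the SHAM horns, with the SHAM maximum several times the highest PBS value. In 15 of 17 epithelial genes the fold was below 0, with a median of -0.29 that was -0.03 without SHAM horn 3. The score was 8.15, 8.61, 8.83, 8.44 and 8.63 in PBS horns 7 to 11, against 8.34, 8.61 and 9.59 in the SHAM horns, so the PBS horns lay within or just under the SHAM range.

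Gland and cilia genes did not separate the groups. Foxa2, the transcription factor of uterine glands, had 16.9, 14.7, 2.17, 9.35 and 2.11 CPM in PBS horns 7 to 11, against 4.64, 10.6 and 12.5 CPM in the SHAM horns (log2 fold -0.09, SE 0.57). Horns 7 and 8 were above the SHAM range and horns 9 and 11 below it. Its fold was 0.16 without PBS horn 11. Cxcl15, a chemokine of glands, had 32.3, 148, 7.40, 2.66 and 1.97 CPM in PBS horns 7 to 11, against 0.247, 61.8 and 107 CPM in the SHAM horns. Aldh1a1, which makes retinoic acid, had 257, 200.5, 264, 28.3 and 136 CPM in PBS horns 7 to 11, against 7.01, 233 and 300.0 CPM in the SHAM horns. All 5 gland genes tested had a fold below 0 (median -0.50, and -0.18 without SHAM horn 5). Cilia genes had a fold above 0 in 6 of 8 (0.43, and 0.20 without PBS horn 8) and squamous genes in 4 of 6 (0.14, and -0.11 without PBS horn 9). None of these members had an unadjusted p under 0.05.

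Hormone-related genes differed more between single horns than between groups. Esr1 had 295, 416, 347, 432 and 328 CPM in PBS horns 7 to 11, against 287, 319 and 476 CPM in the SHAM horns (log2 fold 0.08, SE 0.41). Pgr had 327, 1104, 477, 222 and 314 CPM in PBS horns 7 to 11, against 49.6, 275 and 627 CPM in the SHAM horns (log2 fold 0.59, SE 0.76), horn 8 being above all other horns. Of 6 steroid receptor genes, 5 had a fold above 0 (median 0.51), and the median was 0.049 without PBS horn 8 and -0.13 in limma voom with sample quality weights. Among estrogen-induced genes C3, the third complement component, had 5756, 392, 10618, 2888 and 13741 CPM in PBS horns 7 to 11, against 2480.1, 6263 and 32203 CPM in the SHAM horns, and horn 8 was the lowest of the 11 horns. Sprr2g, a small proline-rich protein, had 40.8, 26.3, 44.0, 17.2 and 43.9 CPM in PBS horns 7 to 11, against 42.8, 49.5 and 405 CPM in the SHAM horns (log2 fold -1.73, SE 0.75, unadjusted p = 0.031). The fold was below 0 in 10 of 13 estrogen-induced genes, with a median of -0.51 that was -0.05 without SHAM horn 3.

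Some progesterone-related genes were highest in PBS horn 8. Ihh, the epithelial hedgehog ligand that progesterone induces, had 85.9, 338, 109.9, 6.44 and 9.29 CPM in PBS horns 7 to 11, against 0.123, 75.2 and 182 CPM in the SHAM horns. SHAM horns 3 and 4 held the lowest Ihh values, at 0.988 and 0.123 CPM. Gata2, a partner of Pgr in transcription, had 245, 615, 232, 163 and 164 CPM in PBS horns 7 to 11, against 185, 242 and 369 CPM in the SHAM horns. Wnt11 had 6.67, 143, 5.87, 0.858 and 3.94 CPM in PBS horns 7 to 11, against 0.247, 7.86 and 49.5 CPM in the SHAM horns, with horn 8 above all SHAM horns. In the progesterone list 8 of 12 genes tested had a fold above 0, with a median of 0.25 that was -0.17 without PBS horn 8, and 0 had an unadjusted p under 0.05. The labels give no cycle stage, and its part in these values was not tested.

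Among implantation regulators, Lif, a cytokine needed for embryo attachment, had 10.5, 6.53, 6.92, 15.7 and 19.8 CPM in PBS horns 7 to 11, against 10.2, 13.5 and 149 CPM in the SHAM horns (log2 fold -2.08, SE 1.06). SHAM horns 3 and 4 held the highest values, and without both the fold was 0.02. Msx1, a homeobox gene of the receptive epithelium, had 776, 1160.1, 836, 175 and 465 CPM in PBS horns 7 to 11, against 132, 674 and 773 CPM in the SHAM horns. In this list 3 of 12 genes had a fold above 0 (median -0.19, and 0.10 without SHAM horn 3). Of 12 Wnt and progenitor genes, 10 had a fold above 0 (0.32, and 0.15 without SHAM horn 3). Dkk2, a secreted Wnt modulator, had the smallest unadjusted p of that list, 0.0071, with 8.56, 0.202, 0.0804, 13.2 and 1.06 CPM in PBS horns 7 to 11, against 0.123, 0.666 and 0.822 CPM in the SHAM horns. Horns 7 and 10 carried its fold of 2.94 (SE 0.99).

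Angiogenic factors had a fold above 0 in 7 of 12 genes (median 0.23, and 0.074 without PBS horn 10). Vegfa, the main vessel growth factor, had 108, 268, 78.9, 46.1 and 117 CPM in PBS horns 7 to 11, against 34.8, 155 and 494 CPM in the SHAM horns (log2 fold -0.63, SE 0.63), and its fold was -0.09 without SHAM horn 3. Adm, the peptide adrenomedullin, had 8.30, 0.606, 3.38, 8.67 and 7.46 CPM in PBS horns 7 to 11, against 2.27, 4.45 and 129.5 CPM in the SHAM horns. Hif1a, the hypoxia-response factor, had 165, 679.6, 213, 195 and 153 CPM in PBS horns 7 to 11, against 144, 231 and 382 CPM in the SHAM horns, with horn 8 above all SHAM horns.

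Genes of dividing cells had their lowest score in SHAM horn 3. Mki67 had 132, 299, 75.8, 199 and 77.7 CPM in PBS horns 7 to 11, against 1.38, 297 and 492 CPM in the SHAM horns (log2 fold -0.86, SE 0.93), and without SHAM horn 3 its fold was -1.14. Top2a, a topoisomerase of dividing cells, had 248, 420.4, 150.1, 228 and 155 CPM in PBS horns 7 to 11, against 4.45, 462 and 627 CPM in the SHAM horns. All 27 cell cycle genes had a fitted fold below 0, with a median of -0.79, and 0 had an unadjusted p under 0.05. The median difference of mean log2 CPM was -0.079, and the median fold was -0.077 with limma voom and -1.06 without SHAM horn 3. The score was 6.03, 6.34, 5.33, 5.95 and 5.23 in PBS horns 7 to 11, against 1.37, 6.66 and 7.13 in the SHAM horns. Every PBS horn was below the SHAM median, and SHAM horn 3 was below every PBS horn.

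Genes that can reflect tissue handling and RNA makeup differed between single horns. All 13 mitochondrially encoded genes had a fold above 0 (median 0.48, and 0.09 without PBS horn 7), and their score was 9.04, 6.75, 7.66, 8.34 and 8.22 in PBS horns 7 to 11, against 6.57, 7.49 and 8.64 in the SHAM horns. Immediate early and heat shock genes, which respond within minutes to stress, had a fold above 0 in 4 of 16 (-0.28, and -0.012 without SHAM horn 3). Fos, an early-response factor, had 160.3, 5.86, 15.8, 187 and 143 CPM in PBS horns 7 to 11, against 65.4, 107 and 264 CPM in the SHAM horns, where horns 8 and 9 were the lowest of the 11. In horn 8, 6 of the 16 members were more than 2-fold below all SHAM horns, against 3.4% of all genes. Whether these values bear on the other gene groups was not tested.

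Glycolysis genes showed smaller but more even differences. All 11 glycolysis genes had a fold below 0, where 53.6% of all genes had one above 0. They had a median of -0.58, and 2 had an unadjusted p under 0.05 against 0.655% of all genes. Pgam1, a phosphoglycerate mutase, had 29.2, 27.0, 36.4, 23.9 and 42.8 CPM in PBS horns 7 to 11, against 38.8, 46.1 and 70.1 CPM in the SHAM horns (log2 fold -0.69, SE 0.24, unadjusted p = 0.0089), and 1 PBS horn, 11, overlapped SHAM. Hk2, a hexokinase, had 59.8, 69.9, 44.3, 82.5 and 97.5 CPM in PBS horns 7 to 11, against 85.4, 87.8 and 382 CPM in the SHAM horns (log2 fold -1.03, SE 0.46). Ldha, the lactate dehydrogenase of muscle type, had 571, 618, 736, 662 and 856 CPM in PBS horns 7 to 11, against 714, 837 and 1485 CPM in the SHAM horns. The glycolysis score was 6.57, 6.43, 6.69, 6.34 and 7.05 in PBS horns 7 to 11, against 6.80, 6.98 and 8.26 in the SHAM horns, so 4 of 5 PBS horns were below all SHAM horns. The list's median was -0.37 without SHAM horn 3, which held the SHAM maximum of Hk2 and of the glucose transporter Slc2a1, and -0.20 without SHAM horns 3 and 4, a setting added after the data were seen. Over all alternatives other than leaving out 1 horn it ran from -0.68 to -0.10. Gapdh had 8.43, 9.90, 5.95, 9.35 and 10.2 CPM in PBS horns 7 to 11, against 8.02, 10.8 and 22.5 CPM in the SHAM horns, a low level for this enzyme, and its many near-identical copies may share its reads.

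One-carbon enzymes, which move single carbon units from serine onto folate, had a fold below 0 in 12 of 13 genes (median -0.35, and -0.26 without SHAM horn 4). At an unadjusted p under 0.05, 1 was lower, against 0.655% of all genes. The score was 4.74, 5.03, 4.73, 4.50 and 4.40 in PBS horns 7 to 11, against 3.40, 5.08 and 5.48 in the SHAM horns. All PBS horns were thus within the SHAM range. Shmt2, the serine hydroxymethyltransferase of mitochondria, had 52.0, 50.2, 65.0, 57.7 and 60.3 CPM in PBS horns 7 to 11, against 67.2, 78.4 and 124 CPM in the SHAM horns (log2 fold -0.64, SE 0.19, unadjusted p = 0.0031). All 5 PBS horns were below all 6 SHAM horns. Phgdh, which starts serine synthesis, had 9.18, 3.37, 3.30, 5.83 and 3.17 CPM in PBS horns 7 to 11, against 0.593, 9.65 and 16.0 CPM in the SHAM horns, and Psat1, the next enzyme, had 155, 172, 170.5, 84.9 and 102 CPM in PBS horns 7 to 11, against 15.8, 182 and 229 CPM in the SHAM horns. In both genes the groups overlapped.

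A small set of genes set all 5 saline horns on one side of all 6 SHAM horns, across the split in vessel and stromal genes. There were 32 such genes above SHAM (0.181% of those tested) and 20 below (0.113%). No gene passed the threshold between the groups. Whether these counts exceed what a random labelling of the horns would give was not tested. The genes named here were picked for their gap or a small p, so their separation is no further result. With any 1 horn left out there were 37 to 80 above and 25 to 181 below, the most above without PBS horn 11 and the most below without SHAM horn 3. The widest gap above was that of Dbp, a transcription factor at the output of the circadian clock, with 11.8, 10.0, 13.8, 8.32 and 9.01 CPM in PBS horns 7 to 11, against 1.85, 5.67 and 6.56 CPM in the SHAM horns (log2 fold 1.06, SE 0.49). Mxd4, a repressor that opposes Myc, had 103, 161, 119, 96.7 and 95.4 CPM in PBS horns 7 to 11, against 23.2, 72.4 and 77.0 CPM in the SHAM horns (log2 fold 0.89, SE 0.28). A4galt, which makes the glycolipid Gb3, had 127, 226, 226, 139.7 and 133 CPM in PBS horns 7 to 11, against 83.8, 103 and 108 CPM in the SHAM horns (log2 fold 0.78, SE 0.26), with horns 8 and 9 the highest. Fam117a had 15.8, 13.7, 14.6, 14.0 and 14.0 CPM in PBS horns 7 to 11, against 9.87, 10.5 and 11.5 CPM in the SHAM horns, and Rpl19-ps10, a ribosomal pseudogene whose reads may come from related copies, had 4.09, 3.97, 5.47, 6.18 and 4.72 CPM in PBS horns 7 to 11, against 2.57, 3.04 and 3.50 CPM in the SHAM horns. Stxbp6, a syntaxin-binding protein, had 13.8, 8.89, 12.6, 10.0 and 13.1 CPM in PBS horns 7 to 11, against 4.07, 6.42 and 8.22 CPM in the SHAM horns (log2 fold 0.87, SE 0.27), and Camk1g, a calcium-dependent kinase, had 1.95, 1.41, 2.90, 3.86 and 1.69 CPM in PBS horns 7 to 11, against 0.905, 1.26 and 1.37 CPM in the SHAM horns. With sample quality weights in limma voom, Stxbp6 had the smallest adjusted p of any gene, 0.181.

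Below SHAM, Uck2, a kinase of the pyrimidine salvage pathway, had 82.0, 67.9, 84.3, 79.4 and 85.0 CPM in PBS horns 7 to 11, against 90.6, 96.5 and 106 CPM in the SHAM horns (log2 fold -0.30, SE 0.12). Fzr1, an activator of the anaphase-promoting complex, had 81.3, 77.2, 74.9, 71.2 and 77.8 CPM in PBS horns 7 to 11, against 85.6, 90.2 and 137 CPM in the SHAM horns. Selenoi, an enzyme of phosphatidylethanolamine synthesis, had 54.4, 61.4, 54.3, 48.1 and 60.4 CPM in PBS horns 7 to 11, against 64.3, 73.7 and 84.0 CPM in the SHAM horns. Slc20a1, a phosphate transporter, had 38.4, 27.2, 32.0, 40.5 and 39.0 CPM in PBS horns 7 to 11, against 43.1, 44.9 and 55.1 CPM in the SHAM horns, and Clec2f, a C-type lectin, had 4.21, 4.31, 3.86, 5.23 and 4.93 CPM in PBS horns 7 to 11, against 5.55, 6.05 and 16.1 CPM in the SHAM horns. Over PBS and over SHAM horns, the SD of log2 CPM was 0.13 and 0.08 in Uck2, 0.24 and 0.14 in Slc20a1, and 0.14 and 0.14 in Selenoi. It was 0.07 and 0.25 in Fzr1, and 0.17 and 0.65 in Clec2f. The SHAM maximum was horn 4 in Uck2 and Fzr1, and without SHAM horn 4 the log2 folds were -0.27 for Uck2 and -0.24 for Fzr1, still below 0.

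**Figure D5:**
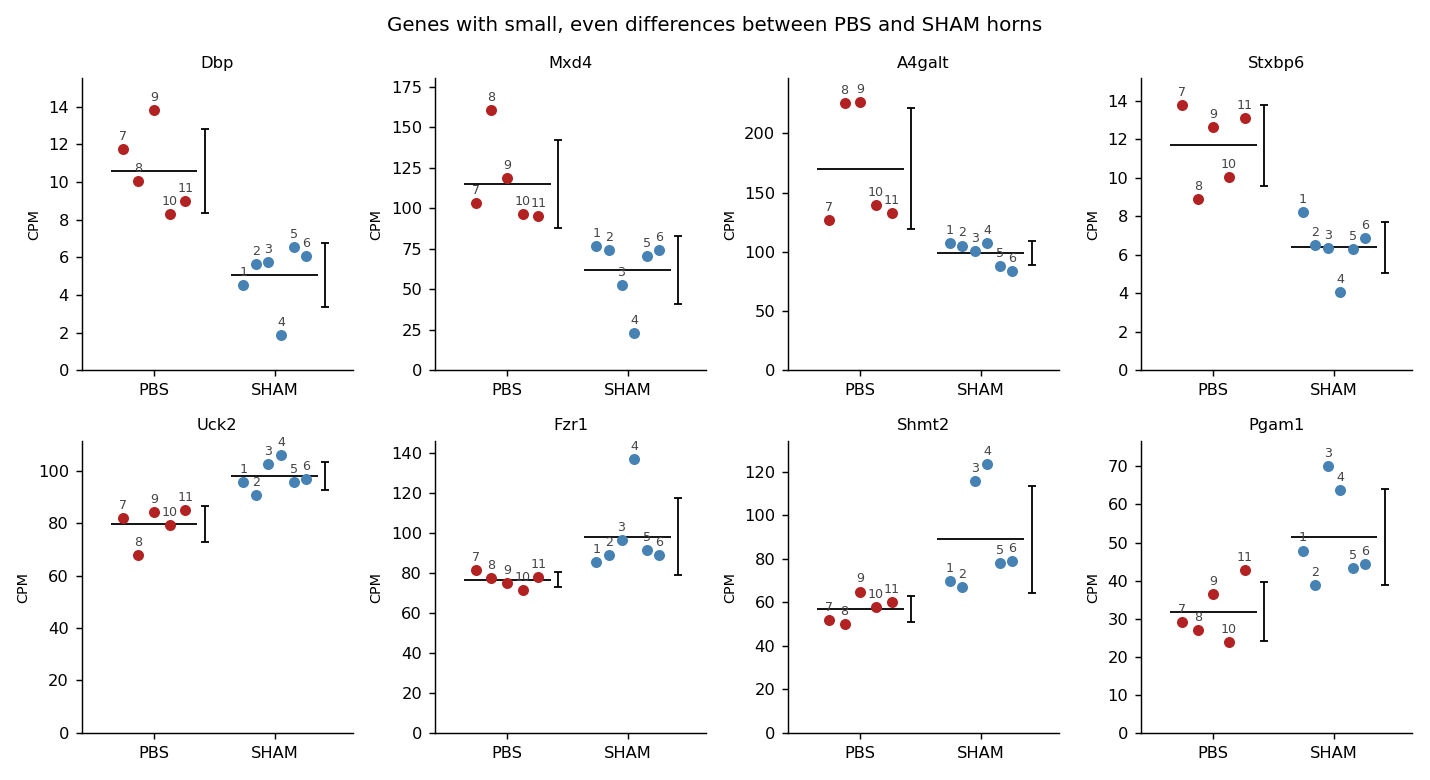
CPM of 8 genes, 1 point per horn labelled by its number, PBS in red at left and SHAM in blue at right; the line is the group mean and the bar 1 SD (n = 5 PBS, n = 6 SHAM). The 5 PBS horns lie above all SHAM horns for Dbp, Mxd4, A4galt and Stxbp6 and below them for Uck2, Fzr1 and Shmt2, while for Pgam1 PBS horn 11 overlaps SHAM.

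Other genes with small unadjusted p overlapped between the groups. Iglc2, a lambda light chain constant gene, had the smallest, 0.001, with 0.377, 0.0673, 0.0804, 10.9 and 1.20 CPM in PBS horns 7 to 11, against 0, 0.0365 and 0.137 CPM in the SHAM horns, so that its fold of 5.33 (SE 1.40) rested mainly on horn 10. Tef, a factor related to Dbp, had 25.9, 25.3, 18.7, 24.1 and 13.1 CPM in PBS horns 7 to 11, against 4.07, 7.63 and 14.7 CPM in the SHAM horns (log2 fold 1.33, SE 0.42), and PBS horn 11 was within SHAM. Lepr, the leptin receptor, had 22.1, 8.22, 14.6, 45.6 and 12.8 CPM in PBS horns 7 to 11, against 5.21, 9.07 and 12.2 CPM in the SHAM horns (log2 fold 1.19, SE 0.38). On the lower side, Slc19a2, a thiamine transporter, had 14.4, 10.4, 9.09, 9.10 and 12.4 CPM in PBS horns 7 to 11, against 9.87, 19.1 and 24.5 CPM in the SHAM horns (log2 fold -0.71, SE 0.23), and Mlkl, the effector of necroptosis, had 9.44, 10.2, 9.17, 10.3 and 15.0 CPM in PBS horns 7 to 11, against 13.8, 17.4 and 47.6 CPM in the SHAM horns (log2 fold -1.06, SE 0.37). Abcb1b, a drug efflux pump, had 4.59, 1.08, 4.18, 2.57 and 8.24 CPM in PBS horns 7 to 11, against 2.96, 4.05 and 248 CPM in the SHAM horns. Its fold of -3.43 rested on SHAM horn 3 and was 0.01 without that horn. Adm2, a peptide related to adrenomedullin, had 0.315, 0.135, 0.241, 0 and 0.493 CPM in PBS horns 7 to 11, against 0.292, 0.672 and 7.61 CPM in the SHAM horns. The remaining genes named by the rule, AC121875.1 and the pseudogene Uqcrh-ps2, had folds of -0.94 and -0.94.

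The 10 genes with the largest ratio of PBS to SHAM spread were picked for that ratio, so their wide PBS spread is no further result. Over all genes the SD was larger in PBS in 43.5%. Most of the 10 genes showed the same split. Mgp, the matrix Gla protein of vessels and stroma, led with 214, 0.269, 0.563, 76.0 and 18.8 CPM in PBS horns 7 to 11, against 10.3, 13.8 and 15.4 CPM in the SHAM horns. The SHAM horns lay close together while the PBS horns ran from far below to far above them. Ogn, the proteoglycan osteoglycin, had 40.5, 0.135, 0.241, 94.8 and 10.1 CPM in PBS horns 7 to 11, against 8.07, 12.9 and 19.7 CPM in the SHAM horns, Flnc, the filamin of muscle, had 11.5, 0.269, 0.241, 52.8 and 3.45 CPM in PBS horns 7 to 11, against 3.50, 5.84 and 6.65 CPM in the SHAM horns, and Ggt5, a gamma-glutamyltransferase, had 20.7, 0.0673, 0.241, 49.4 and 2.04 CPM in PBS horns 7 to 11, against 2.04, 3.28 and 5.31 CPM in the SHAM horns. Lix1l, Dpysl3, Arhgap23 and Scarf2 were likewise lowest in horns 8 and 9 and highest in horns 7 and 10. Lrba, a factor of vesicle traffic, went the other way, with 109, 263, 159, 85.1 and 141 CPM in PBS horns 7 to 11, against 126, 135 and 143 CPM in the SHAM horns, and Hps4, a factor of lysosome-related organelles, had 21.5, 34.6, 22.4, 18.4 and 22.5 CPM in PBS horns 7 to 11, against 20.0, 20.5 and 21.3 CPM in the SHAM horns. In both, horn 8 was the highest of the 11 horns.

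Single horns also carried genes of their own, named here by their distance from the SHAM median among genes more than 2-fold outside the SHAM range, with no test. In PBS horn 7, Cytl1, a secreted cytokine-like protein, had 23.9, 0.875, 0.0804, 0.601 and 0 CPM in PBS horns 7 to 11, against 0, 0 and 1.83 CPM in the SHAM horns, and Nos3, the nitric oxide synthase of endothelium, had 23.3, 0.0673, 0.0804, 12.4 and 0.352 CPM in PBS horns 7 to 11, against 0.274, 0.432 and 3.87 CPM in the SHAM horns. Its lowest genes, Rnf17, Ctrl and Fut1, were all at low levels, with Fut1, a fucosyltransferase, at 0.692, 1.08, 1.69, 2.92 and 2.32 CPM in PBS horns 7 to 11, against 1.83, 2.37 and 2.72 CPM in the SHAM horns. In PBS horn 8, Lrp2, the endocytic receptor megalin, had 7.61, 1331, 12.6, 13.5 and 2.89 CPM in PBS horns 7 to 11, against 1.96, 5.95 and 226 CPM in the SHAM horns, where SHAM horns 5 and 6 were next. Slc13a5, a citrate transporter, had 0, 115, 0, 0.172 and 0 CPM in PBS horns 7 to 11, against 0, 0 and 21.0 CPM in the SHAM horns, and Pla2g10, a secreted phospholipase, had 0.629, 64.3, 0.885, 1.29 and 0.0704 CPM in PBS horns 7 to 11, against 0.0988, 0.524 and 9.47 CPM in the SHAM horns. The lowest genes of horn 8 were the fat genes Cfd, Fabp4 and Car3.

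In PBS horn 9, among the highest were Ntm, a neural adhesion molecule, with 6.98, 0.741, 20.4, 8.07 and 8.73 CPM in PBS horns 7 to 11, against 1.48, 3.12 and 4.39 CPM in the SHAM horns, and Sez6l with 0.629, 4.38, 6.92, 8.32 and 0.704 CPM in PBS horns 7 to 11, against 0.302, 1.03 and 2.92 CPM in the SHAM horns. The lowest were Cfd, Car3 and Sparc, a collagen-binding matrix protein, with 199, 1.48, 1.29, 763 and 54.2 CPM in PBS horns 7 to 11, against 12.5, 96.2 and 172 CPM in the SHAM horns. In PBS horn 10 the highest were Jchain, A2m, a protease inhibitor, with 1.32, 0.471, 0, 144 and 1.69 CPM in PBS horns 7 to 11, against 0.494, 1.68 and 10.6 CPM in the SHAM horns, and Mfap4, a microfibril protein, with 13.7, 0.471, 0.402, 108 and 1.76 CPM in PBS horns 7 to 11, against 0.889, 1.35 and 14.1 CPM in the SHAM horns. Its lowest were Car3, Cuzd1, with 17.2, 0.135, 11.6, 0 and 29.4 CPM in PBS horns 7 to 11, against 0.247, 19.1 and 304 CPM in the SHAM horns, and Sprr2d, a small proline-rich protein, with 48.4, 0.135, 32.5, 0.515 and 82.4 CPM in PBS horns 7 to 11, against 1.97, 42.9 and 110.2 CPM in the SHAM horns. In PBS horn 11 the highest were Mmp12, Igkc and Gpnmb. Its lowest were Pcdh11x, a protocadherin, with 1.01, 5.52, 0.965, 3.35 and 0.0704 CPM in PBS horns 7 to 11, against 0.889, 1.56 and 2.98 CPM in the SHAM horns, Slc16a12, a monocarboxylate transporter family member, with 3.84, 26.5, 3.54, 14.1 and 0.563 CPM in PBS horns 7 to 11, against 1.68, 5.08 and 10.5 CPM in the SHAM horns, and Ano5, with 2.39, 10.2, 0.563, 5.49 and 0.422 CPM in PBS horns 7 to 11, against 2.77, 3.90 and 8.19 CPM in the SHAM horns. Horns 7, 8 and 10 thus each held genes far above the other 10 horns.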

How the data were processed

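RNA of 23 mouse endometrium libraries was measured by bulk sequencing of poly(A) RNA, as stranded single-end libraries per the labels' protocols. The authors deposited raw read counts per gene, whole numbers that sum to a different total in each library. The submitters' processing notes name HISAT2 2.2.1, featureCounts 2.0.3 (Subread), SAMtools 1.21, Trimmomatic 0.39, FastQC 0.11.9, MultiQC 1.27.1, DESeq2 1.42.1 and R 4.3.1, and the mouse build GRCm39. No source used here gives the annotation release or strand setting, so antisense, overlapping and near-identical genes may share reads and their values are uncertain. Every one of the 18682 features in the table reached 10 counts in 3 or more libraries. Gene symbols were found for 18341 identifiers and not for 341. The annotation at hand was of another build, so no coordinates are given.

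In R 4.3.3, edgeR 4.0.16 was run on the counts as deposited, scaled by TMM. Of the features, 17708 passed filterByExpr and 974 did not. A single quasi-likelihood fit without covariates took in the 4 groups, which thus share their estimate of the spread, and only PBS against SHAM is reported. P-values were adjusted by Benjamini-Hochberg over all 17708 genes at 0.05. SE was derived by dividing the size of the log2 fold by the root of F. Log2 CPM used a prior count of 2. DESeq2 1.42.0, limma 3.58.1 with and without sample quality weights, other filters and scalings, cell-type scores as covariates and leaving out each horn were alternatives. The fits were tested on simulated data. P-values of the main fit weigh the difference between PBS and SHAM against a spread estimated over the horns of all 4 groups.

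Genes were named by rule: the 8 higher and 8 lower with the smallest p (mean of at least 1 CPM), the 5 in each direction with the widest gap between groups that do not overlap, the 10 with the largest SD ratio (mean of at least 5 CPM), the 3 highest and 3 lowest of each PBS horn among genes more than 2-fold outside the SHAM range, 12 fixed genes, and members of 35 lists. The lists held 470 genes, of which 445 were in the table and 433 were tested. Members, lists and rules were chosen with earlier results of these data known. List medians and counts are descriptions with no test. Values of a few genes met by the rule are not reported here.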

Additional observations from a re-analysis of the deposited data

Results flagged for a closer look

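Of 142 sets of values examined, each the 5 PBS or the 6 SHAM horns for 1 list score, library measure or named gene, 17 held 1 horn far from the others by Dixon's criterion at 95%. Chance alone meets that criterion in about 1 of 20 independent sets. Some of the genes were picked from these same values and the sets are not independent, so that rate is no yardstick for the 17. SHAM horn 3 stood apart most often. It was the lowest SHAM horn in the cell cycle score, at 1.37 (the next was 6.30), in the one-carbon enzyme score, at 3.40, and in Mki67, at 0.62 log2 CPM. It was the highest SHAM horn in the implantation regulator score, at 7.22, in the Schwann and nerve cell score, at 4.86, in Abcb1b, at 7.96 log2 CPM (the next was 2.73), and in Adm2, at 2.96 log2 CPM.

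SHAM horn 4 had the lowest total of its group, 7920918 counts. It was also the lowest in the matrix protease score, at 1.79, in Jchain, at -2.66 log2 CPM, which is the value of a count of 0, in Mxd4, at 4.55, and in Dbp, at 1.01, and the highest in Fzr1, at 7.10 log2 CPM. SHAM horn 2 had the highest red cell score, 3.93.

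Among the PBS horns, horn 7 had the highest adipocyte score, 5.24 (the next was 0.52), and the highest Wnt and progenitor score, 4.42. PBS horn 11 had the highest Mlkl, 3.92 log2 CPM. The other splits among the PBS horns, which put horns 7 and 10 above and horns 8 and 9 below, set no single horn apart and so are not in this count.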

How the results depend on the processing

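No gene passed under 23 of 24 alternatives, and DESeq2 called 1. At an unadjusted p under 0.05 there were 385 genes, against 149 with limma voom, 1715 with sample quality weights, 182 without SHAM horns 3 and 4, 231 without SHAM horn 4 and 237 without PBS horn 10. Of 837 alternative folds of 35 named genes, 810 kept their direction. Signs changed for Col1a1 (-0.91 with limma voom, -0.96 with quality weights, -1.44 with the muscle score as covariate; -0.88 to 1.98 without single horns), Col3a1 (-1.06, -1.05, -1.59; -0.81 to 1.62) and Igf1 (-0.55, -0.99, -0.91; -0.42 to 0.80). With the muscle score Tgfb1 was at -0.034 (-0.043 to 0.52 without single horns) and Foxa2 at 0.11 (-0.44 to 0.16). With quality weights Abcb1b was at 0.14 (-3.84 to 0.0094), Pgr at -0.21, Lif at 0.069 and Hoxa10 at -0.66. Lif was at 0.020 without SHAM horns 3 and 4, Mki67 at 0.091 with limma voom and 0.18 with the cell cycle score, and Esr1 at -0.092 with the adipocyte score. The cause was not tested. Without single horns, genes with no overlap were 37 to 80 above and 25 to 181 below, since fewer horns overlap less often, and genes more than 2-fold outside SHAM were 13 to 20 below in PBS horn 7, 16 to 28 above in horn 9, 93 to 286 below in horn 10, and 66 to 156 above and 26 to 155 below in horn 11. List medians moved by less than 1 SD of the list's score over horns, taking the smaller SD of PBS and SHAM, in 775 of 840 alternatives. That SD was wide for some lists (the neutrophil median stayed within it at -1.43 to 1.46), and 11 of 35 lists kept the sign of their median in every alternative. Leaving out SHAM horns 3 and 4 together was chosen after seeing the data. Genes under 1 CPM rest on few reads. No paired analysis was possible because the labels do not tie horns to mice, and the titles only number the horns 1 to 23.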

Other observations

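Genes of the circadian clock were looked at after Dbp and Tef had been seen, so they are a description. Per3, a clock component, had 18.8, 18.3, 18.0, 15.8 and 18.6 CPM in PBS horns 7 to 11, against 6.05, 12.5 and 14.2 CPM in the SHAM horns, and its 5 PBS horns were above all 6 SHAM horns. Of 18 clock genes tested, Dbp and Tef included, 11 had a fold above 0 and 7 below, with a median log2 fold of 0.48, and the 2 with an unadjusted p under 0.05 were Dbp and Tef themselves. Nr1d1, a repressor in the clock loop, had 21.0, 5.32, 13.2, 11.2 and 9.29 CPM in PBS horns 7 to 11, against 7.62, 14.9 and 24.8 CPM in the SHAM horns. Arntl, the activator BMAL1, had 12.2, 21.1, 10.9, 20.6 and 15.8 CPM in PBS horns 7 to 11, against 15.1, 17.5 and 39.3 CPM in the SHAM horns (log2 fold -0.50, SE 0.29), and Cry1, a repressor, had 13.1, 18.4, 13.7, 19.0 and 20.8 CPM in PBS horns 7 to 11, against 17.0, 19.6 and 32.6 CPM in the SHAM horns (log2 fold -0.39, SE 0.21). The labels give no time of day for the tissue collection, and its part was not tested.

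Further genes of lipid-laden macrophages were looked at after Gpnmb and Mmp12 had been seen. Trem2, a lipid receptor of macrophages, had 22.5, 1.41, 2.49, 5.83 and 13.2 CPM in PBS horns 7 to 11, against 0.296, 4.87 and 7.62 CPM in the SHAM horns. Atp6v0d2, a proton pump subunit, had 11.9, 4.71, 4.50, 0.601 and 20.0 CPM in PBS horns 7 to 11, against 0, 2.21 and 2.81 CPM in the SHAM horns, and was highest in horns 7 and 11, as were Gpnmb, Mmp12 and Trem2. Spp1, osteopontin, which epithelium also makes, had 719, 30.0, 671, 157 and 1181 CPM in PBS horns 7 to 11, against 228, 593 and 1269 CPM in the SHAM horns. Lpl, the lipoprotein lipase, had 227, 13.0, 9.33, 20.9 and 52.7 CPM in PBS horns 7 to 11, against 2.67, 68.0 and 462 CPM in the SHAM horns, and Ctsd, a lysosomal protease, had 861, 6708, 1055, 512 and 923 CPM in PBS horns 7 to 11, against 584, 1161 and 2512 CPM in the SHAM horns. Of 11 such genes, Gpnmb and Mmp12 included, 6 had a fold above 0 and 5 below, with a median log2 fold of 0.33.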
